A study of Mus musculus and Acomys cahirinus with 16 samples.

Results

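The 10 genes described here encode receptors with which myeloid cells sense microbes and tissue damage. They are the C-type lectin receptors Clec7a, Clec4a2, Clec4d, Clec4e and Clec4n, the Toll-like receptors Tlr2, Tlr4 and Tlr13, the co-receptor Cd14 and the immunoglobulin-like receptor Trem1. They were taken by gene symbol from a list chosen by measured values of these samples, their levels in treated and untreated skin. Their treatment effects are therefore given as descriptions and support nothing. All 10 were found in both count tables, among 56980 genes in the mouse table and 19818 in the spiny mouse table, and all 10 passed the filter on low counts in both. In spiny mouse 4 of them (Clec4d, Clec4e, Clec4n and Trem1) reached the filter's level in every treated sample but not in every untreated one. The study measured polyadenylated RNA of whole skin in the laboratory mouse (Mus musculus) and the African spiny mouse (Acomys cahirinus). Each species gave 4 untreated samples and 4 samples of skin treated with DMBA/TPA. DMBA is a DNA-damaging chemical carcinogen, and the phorbol ester TPA is used as a tumour promoter. Strain, genotype, age, sex, dose, duration and the site of skin taken are not given in the sources used here, and the labels name neither a vehicle group nor whether the treated skin held tumours.

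Pattern recognition receptors bind molecules that are common to microbes or released from damaged cells. Dectin-type lectins signal through the kinase Syk and the adaptor Card9, and most Toll-like receptors signal through the adaptor Myd88. Both routes lead to NF-kappaB and to the transcription of cytokines and chemokines. In skin these receptors are known mainly from macrophages, monocytes, dendritic cells and neutrophils, although keratinocytes and fibroblasts can carry some of them, Tlr2 and Tlr4 among these.

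The Clec4 members lie near one another in both genomes. In mouse (GRCm39, coordinates of the deposited table) Clec4a2, Clec4n, Clec4d and Clec4e lay at chr6:123083387-123120958, chr6:123206802-123223980, chr6:123239070-123252224 and chr6:123258748-123266829, within 183.4 kb. Clec7a lay farther along the same chromosome at chr6:129438554-129449742. In the spiny mouse assembly AcoCah2 the same 4 genes lay within 315.8 kb of scaffold_4, which also carried Clec7a. The Toll-like receptors and Trem1 were on other chromosomes, with Tlr2 at chr3:83743579-83749074, Tlr4 at chr4:66745821-66848521, Trem1 at chr17:48539796-48553952 and Tlr13 at chrX:105186810-105204099.

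Promoter sequences are shown for Clec4d, Trem1, Clec7a and Clec4e, 4 of the 5 receptors with the largest fitted change in spiny mouse skin. They are mouse sequences from RefSeq on the older build GRCm38.p6, and no spiny mouse promoter was used here. Each line gives the 250 bases before the gene's start, 5′ to 3′ on the gene's strand. Capitals mark GAGGAA, or its reverse complement TTCCTC, a core bound by the myeloid ETS factor PU.1 (gene Spi1).
Clec4d promoter: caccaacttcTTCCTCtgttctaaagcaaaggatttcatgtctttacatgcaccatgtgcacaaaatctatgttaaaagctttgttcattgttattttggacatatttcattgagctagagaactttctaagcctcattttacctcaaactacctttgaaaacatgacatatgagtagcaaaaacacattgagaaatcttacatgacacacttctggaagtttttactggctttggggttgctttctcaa
Clec4e promoter: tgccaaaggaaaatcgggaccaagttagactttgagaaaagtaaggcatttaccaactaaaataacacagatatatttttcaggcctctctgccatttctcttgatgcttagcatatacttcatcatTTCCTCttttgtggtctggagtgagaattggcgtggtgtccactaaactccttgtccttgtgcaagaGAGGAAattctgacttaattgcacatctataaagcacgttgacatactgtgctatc
Clec7a promoter: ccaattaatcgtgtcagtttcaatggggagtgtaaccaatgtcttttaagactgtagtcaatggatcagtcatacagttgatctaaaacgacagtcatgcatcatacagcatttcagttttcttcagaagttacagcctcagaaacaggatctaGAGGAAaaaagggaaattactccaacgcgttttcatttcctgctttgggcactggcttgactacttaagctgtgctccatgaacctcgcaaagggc
Trem1 promoter: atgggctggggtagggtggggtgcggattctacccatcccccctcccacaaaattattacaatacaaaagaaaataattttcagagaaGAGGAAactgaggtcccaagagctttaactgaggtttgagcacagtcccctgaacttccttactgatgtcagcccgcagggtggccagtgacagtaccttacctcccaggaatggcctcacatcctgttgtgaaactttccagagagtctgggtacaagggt
These stretches are chr6:123261857-123262106 on the plus strand for Clec4d, chr6:123289872-123290121 on the minus strand for Clec4e, chr6:129472780-129473029 on the minus strand for Clec7a and chr17:48232489-48232738 on the plus strand for Trem1. Windows from 250 bases before to 50 after the start were used for 7 of the 10 genes. None was found for Clec4n and Tlr4, and Cd14 was left out of the search. Searched on both strands, GAGGAA was in 5 of the 7 windows (Clec7a, Clec4d, Clec4e, Trem1 and Tlr13) and in 28.3% of all 32851 windows of that length. Clec4d held 3 matches, with 2 of them after the start at positions 8 and 40. The AP-1 or TPA response element TGANTCA was in the window of Clec4a2, at position 32, and in 7.8% of all windows. The C/EBP letters TTGCNNAA were in those of Clec4e and Tlr13 and in 10.8% of all windows. An NF-kappaB motif, spelled GGG, any 2 bases and TTTCC, was in none of the 7 and in 1.6% of all windows. Other spellings of this motif were not searched, so its absence covers these letters only. The 4 motifs do not overlap one another in these windows. A match is a description of the letters and not a binding site.

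The mouse samples held 19608787 to 30198281 counts each and the spiny mouse samples 21143918 to 30561256, so that 3 counts correspond to between 0.102 and 0.157 CPM (TMM-scaled CPM, the usual measure of a gene's share of a library). Such limits cover counting error only. Untreated mouse replicate 2 stood apart. The summed level of 6 anagen hair follicle genes was 2229 CPM in it and between 10.1 and 36.6 CPM in the other untreated mouse samples. In treated mouse skin that sum was between 19859 and 21828 CPM, and in spiny mouse it was between 1093 and 11110 CPM untreated and between 190 and 3230 CPM treated. Among untreated mouse samples, replicate 2 also had the lowest pan-leukocyte (176 CPM) and macrophage and monocyte (678 CPM) marker sums. Its adipocyte (103 CPM) and keratinocyte (5803 CPM) sums were lowest too, and its skeletal muscle sum (9321 CPM) was the highest. Markers of the tissue itself moved with treatment in both species. The 4 keratinocyte markers summed to between 5803 and 12140 CPM in untreated and between 18871 and 27276 CPM in treated mouse skin, and to between 12400 and 15533 CPM and between 22221 and 28672 CPM in spiny mouse. The 5 skeletal muscle markers summed to between 7403 and 9321 CPM in untreated and between 1716 and 2255 CPM in treated mouse skin, and to between 9710 and 12449 CPM and between 3250 and 6679 CPM in spiny mouse. Their part in the receptor values was not tested. The labels do not say whether replicates came from separate animals, so p-values measure only the spread between these samples. Bulk RNA does not tell fewer cells of a type from less RNA per cell.

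Clec7a, or dectin-1, the receptor for fungal beta-glucan, had the highest level per length of the lectins in treated spiny mouse skin. In untreated spiny mouse samples 1 to 4 it stood at 5.58, 4.04, 5.82 and 5.25 CPM, and in treated samples at 30.5, 39.9, 64.7 and 52.4 CPM. Every treated sample lay above every untreated one, and the fitted change was 3.18 ± 0.24 (SE) on the log2 scale, or 9.04-fold. In untreated mouse samples it stood at 17.98, 10.2, 31.3 and 9.91 CPM, and in treated samples at 9.49, 9.70, 5.96 and 14.1 CPM. The mouse groups overlapped, with the spread mainly among the untreated samples, and the fitted change was -0.83 ± 0.39.

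Clec4d (dectin-3 or MCL), Clec4e (Mincle) and Clec4n (dectin-2) signal through the Fc receptor gamma chain, and all 3 had few counts in untreated spiny mouse skin. Clec4d was at 0.374, 0.0793, 0.715 and 0.228 CPM there, from 11, 2, 21 and 5 counts. In treated spiny mouse skin it was at 5.64, 6.14, 12.2 and 5.48 CPM, from 124, 172, 333 and 120 counts. The groups were apart, the third treated sample was the highest, and the fitted change of 4.33 ± 0.50 (20.2-fold) was the largest of the 10 genes. Without any single sample it stayed between 3.98 and 4.96. Clec4e, a receptor for mycobacterial glycolipid and for the nuclear protein Sap130, was at 0.578, 0.159, 0.442 and 0.411 CPM untreated and at 2.46, 2.68, 3.70 and 2.56 CPM treated. Clec4n, which binds fungal mannans, was at 0.408, 0.159, 1.22 and 0.731 CPM untreated and at 5.73, 3.72, 4.50 and 5.02 CPM treated. Treated samples lay above all untreated ones for both genes, with fitted changes of 2.81 ± 0.32 for Clec4e and 2.89 ± 0.44 for Clec4n.

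In mouse skin the same 3 lectins were already present without treatment. Clec4d was at 3.90, 2.84, 7.82 and 3.23 CPM untreated and at 2.57, 2.28, 1.56 and 3.82 CPM treated. Clec4e was at 2.39, 0.131, 4.86 and 3.05 CPM untreated and at 1.94, 1.14, 1.13 and 2.74 CPM treated, and the low value of untreated replicate 2 came from 3 counts. Clec4n was at 7.06, 2.44, 8.77 and 3.05 CPM untreated and at 6.56, 6.19, 6.54 and 9.31 CPM treated. Groups overlapped for all 3, and the fitted changes were -0.80 ± 0.38 for Clec4d, -0.59 ± 0.71 for Clec4e and 0.42 ± 0.38 for Clec4n. Clec4n thus had the opposite sign to Clec4d and Clec4e in mouse, a difference between genes that was not tested.

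Clec4a2 (DCIR1) differs from its neighbours in carrying an inhibitory motif in its tail. It was at 2.41, 1.98, 3.06 and 2.79 CPM in untreated and at 2.50, 6.18, 7.46 and 4.34 CPM in treated spiny mouse samples. The first treated sample lay among the untreated ones, so the groups overlapped, and the fitted change was 1.004 ± 0.31. Its call was lost when untreated replicate 1 (0.96), untreated replicate 2 (0.90), treated replicate 2 (0.91) or treated replicate 3 (0.77) was left out. In mouse it was at 14.2, 4.63, 18.5 and 8.64 CPM untreated and at 4.41, 5.23, 6.47 and 8.71 CPM treated, with a fitted change of -0.88 ± 0.39. In the spiny mouse annotation 1795 exonic bases of Clec4a2 also belong to Clec4a4, and reads there were not counted, so its spiny mouse level is uncertain.

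Trem1, which amplifies Toll-like receptor responses of neutrophils and monocytes through the adaptor Tyrobp, was the scarcest member per length in untreated skin of both species. It was at 0.170, 0.436, 0.476 and 0.503 CPM in untreated spiny mouse skin, from 5, 11, 14 and 11 counts. After treatment it was at 5.23, 6.72, 12.5 and 6.94 CPM, each above every untreated sample, and the fitted change was 4.31 ± 0.38 (19.9-fold). In mouse it was at 0.568, 0.262, 0.950 and 1.05 CPM untreated and at 0.734, 0.571, 0.763 and 2.19 CPM treated. Treated replicate 4 alone lay above the untreated range, and the fitted change of 0.60 ± 0.54 became -0.016 without it. In the spiny mouse annotation 1785 exonic bases of Trem1 overlap Dst, where reads were likewise not counted.

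The Toll-like receptors had smaller fitted changes in spiny mouse skin than Clec7a, Clec4d, Clec4e, Clec4n and Trem1, a difference between genes that was not tested. Tlr4, the receptor for bacterial lipopolysaccharide, was at 30.3, 32.2, 28.6 and 31.2 CPM untreated and at 55.8, 54.6, 54.9 and 62.2 CPM treated. These groups were tight and well apart, with a fitted change of 0.90 ± 0.07. Tlr2, which recognises bacterial lipoproteins, was at 2.41, 2.18, 2.82 and 2.60 CPM untreated and at 3.82, 2.96, 4.65 and 4.02 CPM treated, a fitted change of 0.62 ± 0.17. Tlr13, an endosomal sensor of bacterial ribosomal RNA, was at 2.41, 2.78, 2.96 and 2.97 CPM untreated and at 4.87, 4.29, 6.88 and 4.98 CPM treated, a fitted change of 0.92 ± 0.17. Both sets of groups were apart. Cd14, which hands lipopolysaccharide to Tlr4, was at 5.37, 6.66, 4.56 and 5.53 CPM untreated and at 4.78, 6.22, 7.17 and 6.62 CPM treated. Its groups overlapped over most of their range and the fitted change was 0.17 ± 0.16.

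In mouse skin Tlr4 was at 39.4, 21.2, 46.7 and 28.2 CPM untreated and at 16.4, 19.7, 22.3 and 22.1 CPM treated. The treated samples lay below 3 of the 4 untreated ones, with untreated replicate 2 inside their range, and the fitted change was -0.75 ± 0.23. This call was lost without untreated replicate 1 (-0.66), untreated replicate 3 (-0.49), treated replicate 1 (-0.64) or treated replicate 2 (-0.64). Tlr2 was at 10.8, 5.54, 13.6 and 6.46 CPM untreated and at 5.77, 5.75, 7.12 and 7.34 CPM treated, a fitted change of -0.48 ± 0.28. Cd14 was at 12.99, 3.89, 14.7 and 12.4 CPM untreated and at 7.87, 5.53, 6.50 and 9.72 CPM treated, a fitted change of -0.57 ± 0.36. Tlr13 was at 13.2, 4.80, 15.2 and 6.55 CPM untreated and at 9.39, 6.67, 7.63 and 12.2 CPM treated, a fitted change of -0.15 ± 0.36. Groups overlapped for these 3 genes, and untreated replicate 2 held the lowest untreated value of each.

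**Figure D1:**
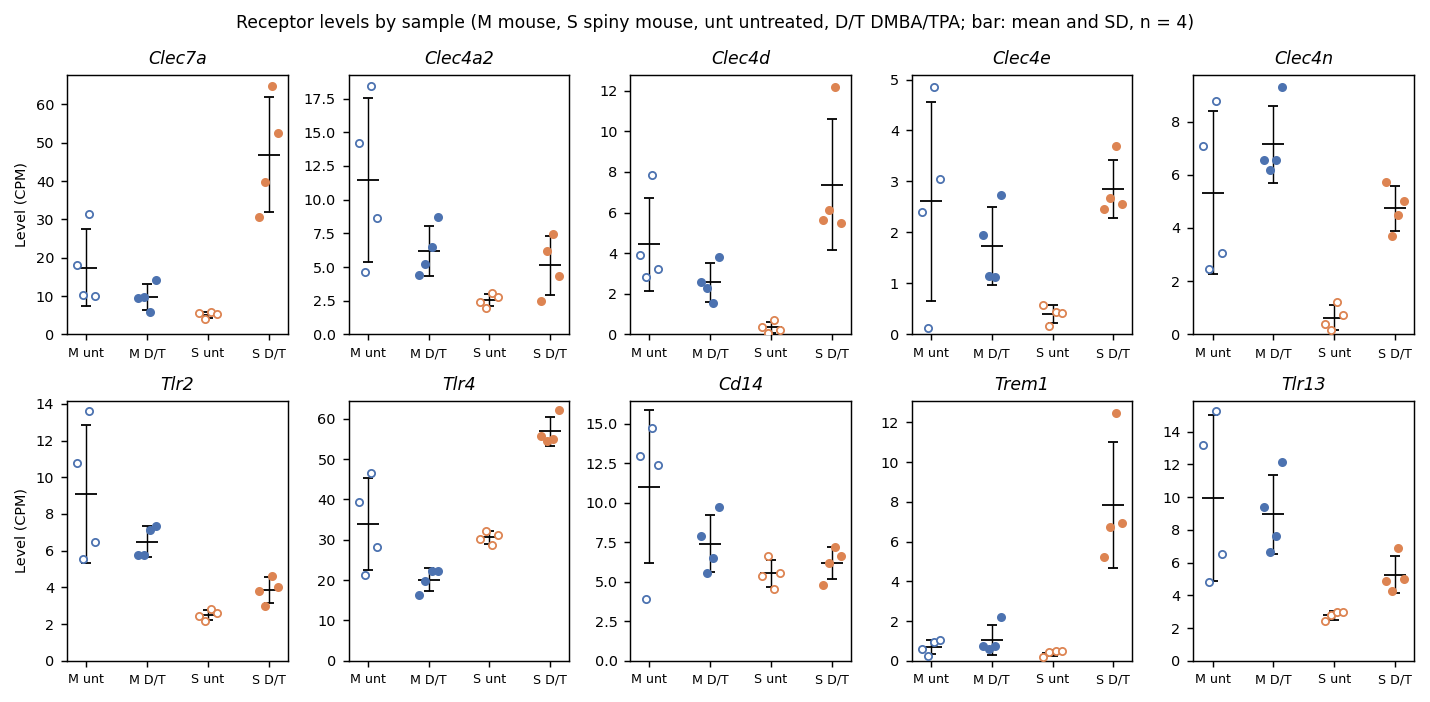
Level of each receptor gene in CPM (vertical axis, linear from 0) in every sample of the 4 groups, with bars for the mean and SD of 4 samples. In spiny mouse the treated points of Clec7a (30.5 to 64.7 CPM) lie above all untreated points, while the mouse groups overlap in every panel.

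Counted over the genes, 9 of the 10 were called higher in treated spiny mouse skin, at an adjusted p under 0.05 in the quasi-likelihood test of edgeR over all genes. Of all 14833 genes tested there, 28.2% were called higher. Genes called lower were nearly as many, as 51.2% of all spiny mouse calls were higher. This background applies also to the lower calls in the gene lists below. Cd14 was not called. The groups did not overlap for 8 of the 10, with treated samples higher, as for 26.7% of all genes. In mouse skin 1 of the 10, Tlr4, was called lower, where 35.2% of 19740 genes were, and the other 9 were not called. All 10 overlapped between the mouse groups, where treated samples lay below all untreated ones for 31.9% of genes. The median fitted change of the 10 genes was 1.91 in spiny mouse, where that of all genes tested was -0.01, and -0.58 in mouse, where it was -0.14. Because these contrasts chose the genes, the counts and medians describe the list only.

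The mouse values depended on untreated replicate 2, the untreated mouse sample with raised hair follicle genes and the lowest pan-leukocyte sum (176 CPM). Without it 7 of the 10 genes were called lower in treated mouse skin, where 36.1% of the 20009 genes tested in that fit were, with fitted changes of -0.92 for Clec7a, -1.05 for Clec4a2, -0.87 for Clec4d, -0.89 for Clec4e, -0.57 for Tlr2, -0.83 for Tlr4 and -0.76 for Cd14. The groups were then apart, with treated samples lower, for Tlr4 and Cd14 and overlapped for the other 8. Without that sample the groups were apart in that direction for 39.0% of all genes. Clec4n (0.27), Trem1 (0.43) and Tlr13 (-0.29) were not called without it. The parts of hair follicle and leukocyte content in these values were not tested.

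The change with treatment was more positive in spiny mouse than in mouse for all 10 genes by the fitted difference (spiny mouse change minus mouse change on the log2 scale). The difference was 5.13 ± 0.66 for Clec4d, 4.003 ± 0.50 for Clec7a, 3.71 ± 0.69 for Trem1, 3.40 ± 0.86 for Clec4e and 2.47 ± 0.61 for Clec4n. It was 1.89 ± 0.54 for Clec4a2, 1.65 ± 0.25 for Tlr4, 1.11 ± 0.34 for Tlr2, 1.07 ± 0.43 for Tlr13 and 0.74 ± 0.43 for Cd14. The 5 differences above 2 thus belonged to Trem1 and to the lectins other than Clec4a2. In the test of the species by treatment interaction 8 of the 10 genes were called, Tlr13 and Cd14 excepted, where 21.3% of 13656 shared genes were called in that direction. The median difference was 2.18, against -0.03 over all shared genes. Without mouse untreated replicate 2 all 10 were called, where 22.4% of shared genes were, with 0.93 for Cd14 and 1.21 for Tlr13. The Tlr13 difference was also called without mouse untreated replicate 4 (1.22) or treated replicate 4 (1.24). Because treatment contrasts of these samples chose the genes, these calls and the median difference describe the list only.

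**Figure D2:**
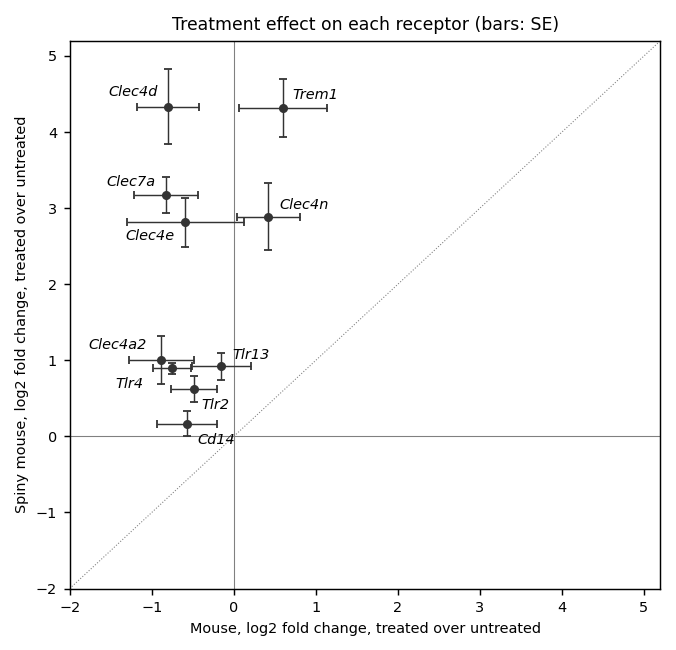
Fitted log2 fold change of treated over untreated skin in mouse (horizontal) and spiny mouse (vertical) for each receptor gene, with SE bars and the line of equal change. All 10 points lie above the line, from 0.74 for Cd14 to 5.13 for Clec4d.

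Levels between genes were compared per kilobase of gene length, as FPKM. In spiny mouse the full length was used for Clec4a2 and Trem1, although reads in their overlapped exonic bases were not counted. Their FPKM are therefore too low by an unknown amount and their ranks there uncertain. In untreated spiny mouse skin Tlr4 led at 6.85 ± 0.34 FPKM (SD, n = 4), above and apart from Cd14 at 2.64 ± 0.41 and Clec7a at 1.94 ± 0.30, whose ranges overlapped. The next genes, Clec4a2, Tlr2, Tlr13, Clec4n, Clec4d, Clec4e and Trem1, fell from 0.906 to 0.0937 FPKM with neighbouring ranges overlapping at each step. In treated spiny mouse skin Clec7a led at 17.6 ± 5.6 FPKM, overlapping Tlr4 at 12.7 ± 0.8, and both were apart from the third gene, Clec4d, at 5.96 ± 2.61. Clec4d thus stood at rank 8 without treatment and at rank 3 with it. Tlr2 was last in treated skin at 1.197 ± 0.22 FPKM, and all neighbours from Clec4d downward overlapped.

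In untreated mouse skin, whose table was normalized separately, Clec7a (6.58 ± 3.80 FPKM), Cd14 (6.35 ± 2.80) and Tlr4 (6.10 ± 2.05) overlapped at the top. Every neighbouring pair overlapped down to Tlr13 at 2.31 ± 1.17 FPKM, and Clec4e (0.525 ± 0.393) and Trem1 (0.236 ± 0.121) lay apart below. In treated mouse skin Clec4n led at 5.03 ± 1.02 FPKM, overlapping Cd14 at 4.28 ± 1.05, and Trem1 (0.355 ± 0.252) and Clec4e (0.350 ± 0.155) were again lowest.

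Leukocyte genes moved with the receptors, with treatment in spiny mouse and between the untreated samples in mouse. The summed level of pan-leukocyte markers was between 169 and 217 CPM in untreated and between 449 and 666 CPM in treated spiny mouse samples, from 4 genes (Ptprc, Coro1a, Cd53 and Laptm5, all 4 called higher). In mouse the sum of 5 genes was between 176 and 400 CPM untreated and between 166 and 226 CPM treated, with Ptprc called lower and the other 4 not called. It was 350, 176, 400 and 240 CPM in untreated mouse replicates 1 to 4. The mean log2 level of the receptors, centred within species, stood in the same order (0.454, -0.927, 0.965 and 0.037). The neutrophil list summed to between 33.8 and 50.03 CPM in untreated and between 88.9 and 147 CPM in treated spiny mouse skin, with 5 of its 7 tested genes higher, 1 lower and Retnlg at 0 in every sample. In mouse it summed to between 7.20 and 12.4 CPM untreated and between 20.5 and 31.4 CPM treated, with all 3 tested genes higher and the other 7 below the count filter. Macrophage and monocyte markers summed to between 562 and 703 CPM in untreated and between 992 and 1407 CPM in treated spiny mouse skin, and 7 of 10 were called higher. In mouse these ranges were 678 to 2006 CPM and 895 to 1251 CPM, with 1 of 11 higher and 2 lower. Over all genes tested, 28.2% were called higher in spiny mouse, and 26.0% higher and 35.2% lower in mouse. The part of cell content in the receptor values was not tested.

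Receptor counts were also set against the pan-leukocyte genes of the same sample, a measure chosen after the data were seen. Because the leukocyte sum was higher in treated spiny mouse skin, most genes were lower on this scale: treated samples lay below all untreated ones for 89.5% of the 14833 genes and above them for 1.06%. Clec7a stood at 2.72 ± 0.43 counts per 100 pan-leukocyte counts in untreated and at 8.44 ± 1.24 in treated skin (SD, n = 4), a ratio of 3.10. Clec4d had a ratio of 7.46, Trem1 of 6.89, Clec4n of 2.84 and Clec4e of 2.49, and treated samples lay above all untreated ones for these 5 genes. All values on this scale describe the list only, because treatment contrasts of these samples chose the genes. Clec4d, Clec4e, Clec4n and Trem1 also fell short of the count filter's level in some untreated spiny mouse samples. For 4 genes, the 3 Toll-like receptors and Cd14, treated samples lay below all untreated ones, as most genes did. Cd14 was at 2.95 ± 0.68 untreated and at 1.14 ± 0.11 treated, 2.58-fold lower, and Tlr2, Tlr4 and Tlr13 were 1.84-fold, 1.52-fold and 1.51-fold lower. Clec4a2 overlapped, at 1.34 ± 0.16 and 0.927 ± 0.335. In mouse 9 of the 10 genes overlapped on this scale. The exception was Clec4n, at 1.72 ± 0.46 untreated and 3.74 ± 0.36 treated, a ratio of 2.18 with every treated sample above every untreated one, as for 30.4% of mouse genes.

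**Figure D3:**
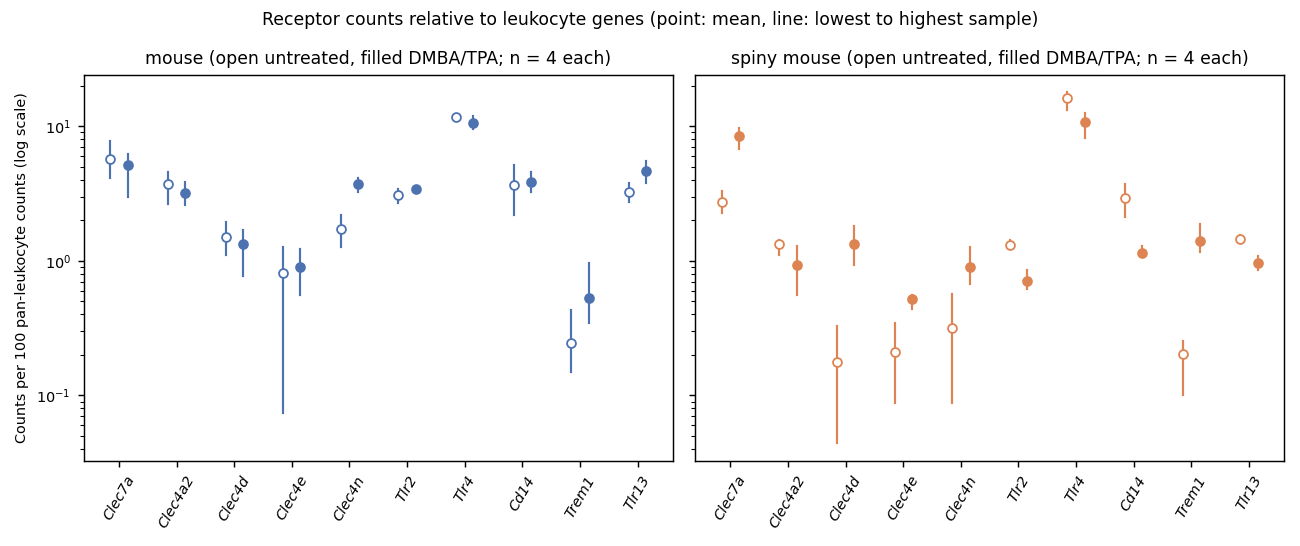
Receptor counts per 100 counts of the pan-leukocyte genes (log axis) in untreated (open) and treated (filled) samples of mouse and spiny mouse, as the mean of 4 samples with a line from the lowest to the highest. In spiny mouse Clec7a, Clec4d, Clec4e, Clec4n and Trem1 are higher with treatment, and Tlr2, Tlr4, Tlr13 and Cd14 lower.

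The signalling partners of the lectins and of Trem1 were largely higher in treated spiny mouse skin. Of 9 genes in this list 6 were called higher and 1 lower in spiny mouse, with a median of 0.54, and 1 higher and 2 lower in mouse, with a median of -0.31 (all genes, -0.01 and -0.14). Among all genes 28.2% were called higher in spiny mouse, and 26.0% higher and 35.2% lower in mouse. Fcer1g, the Fc receptor gamma chain, rose by 1.81 ± 0.21 in spiny mouse (edgeR adjusted p = 0.000128) and was at -0.31 ± 0.34 in mouse (adjusted p = 0.445). Tyrobp, the adaptor of Trem1, rose by 1.36 ± 0.15 in spiny mouse (adjusted p = 9.91e-05). The species differences were 2.12 for Fcer1g (adjusted p = 0.000932) and 2.002 for Tyrobp (adjusted p = 0.00108). The kinase Syk rose by 0.73 ± 0.11 in spiny mouse (adjusted p = 0.000495). Card9, the adaptor downstream of Syk, fell in both species, at -0.90 ± 0.19 in spiny mouse (adjusted p = 0.00328) and -0.89 ± 0.24 in mouse (adjusted p = 0.0101). Plcg2 rose in both species, by 0.70 ± 0.10 in mouse (adjusted p = 0.00035) and 0.54 ± 0.11 in spiny mouse (adjusted p = 0.00294). Malt1 rose by 0.54 ± 0.08 in spiny mouse (adjusted p = 0.000605) and was at -0.30 ± 0.10 in mouse (adjusted p = 0.0214). The mouse Malt1 call was lost without untreated replicate 2 or 3 or treated replicate 2, 3 or 4, where it lay between -0.29 and -0.17. It was lost as well with the DESeq2 test (-0.21), DESeq2 size factors (-0.21), no filter (-0.16), the replicate block (-0.31) and TMM factors over all genes (-0.16).

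Toll-like receptor co-receptors and adaptors were called higher for 8 of 13 genes in spiny mouse (median 0.46) and for 5 of 13 in mouse (median 0.17), beside 28.2% and 26.0% of all genes. In the interaction test 5 of the 13 were called with a positive difference, beside 21.3% of all shared genes, and 2 (Tirap and Ticam1) with a negative one. Over all shared genes 46.2% of the difference calls were positive, so negative calls were the more common. Myd88 rose in both species, by 0.62 ± 0.08 in spiny mouse (adjusted p = 0.000173) and 1.03 ± 0.22 in mouse (adjusted p = 0.00331). Their difference was -0.41 (adjusted p = 0.181) and was called without mouse untreated replicate 2 (-0.30, adjusted p = 0.0263). Tirap, the bridge between Tlr4 or Tlr2 and Myd88, rose by 0.86 ± 0.11 in mouse (adjusted p = 0.000175) and was at 0.26 ± 0.09 in spiny mouse (adjusted p = 0.0345), a difference of -0.60 (adjusted p = 0.00171). The spiny mouse Tirap call was lost with upper-quartile factors (0.22), with the replicate block (0.26) and without untreated replicate 1, 3 or 4 or treated replicate 1 or 4, where it lay between 0.21 and 0.28. The adaptor Ticam1, named here after its values were seen, had a difference of -0.48 (adjusted p = 0.0101). Ly96, the partner of Tlr4 in binding lipopolysaccharide, rose by 0.82 ± 0.19 in spiny mouse (adjusted p = 0.00588), as did the lipopolysaccharide carrier Lbp by 1.03 ± 0.18 (adjusted p = 0.00128) and the endosomal receptor chaperone Unc93b1 by 0.86 ± 0.22 (adjusted p = 0.00891). Without mouse untreated replicate 2, Ly96 (-0.48), Unc93b1 (-0.53) and Tyrobp (-0.80) were called lower in mouse, and Syk (-0.34) was without untreated replicate 4. Scaling by library size alone also gave mouse calls for Ly96 (-0.61), Syk (-0.44) and Unc93b1 (-0.67), and upper-quartile factors for Unc93b1 (-0.64).

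Of the other innate receptors tested, 9 of 19 were called higher, beside 28.2% of all genes, and 1 lower in spiny mouse (median 0.33). In mouse 9 of 20 were called lower, beside 35.2% of all genes, and the other 11 were not called (median -0.72). Fpr1, the formyl peptide receptor of neutrophils, had 5, 1, 4 and 5 counts in untreated and 142, 123, 209 and 75 counts in treated spiny mouse skin. Trem3, another receptor of the Trem family, had 0, 2, 0 and 0 counts untreated and 10, 20, 20 and 12 counts treated. Both passed the count filter through the treated spiny mouse samples alone, so no test is given for them. Both are nevertheless counted among the 9 called higher and in the spiny mouse median of this list. In mouse both were below the filter. Cd36, a scavenger receptor also carried by adipocytes, fell in both species, by 1.40 ± 0.33 in mouse (adjusted p = 0.00544) and 0.65 ± 0.10 in spiny mouse (adjusted p = 0.000586). The lectins Clec4b1 (-2.04 ± 0.40, adjusted p = 0.00203) and Clec12a (-1.58 ± 0.42, adjusted p = 0.00917) fell in mouse. In spiny mouse Clec12a was at 0.21 ± 0.20 (adjusted p = 0.393), and Clec4b1 was not analysed there. In the interaction test 10 of 17 shared genes of this list were called with a positive difference, beside 21.3% of all shared genes, and the other 7 were not called.

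Genes for endogenous ligands were called higher for 6 of 8 in spiny mouse (median 1.67) and for 5 of 8 in mouse (median 1.09), beside 28.2% and 26.0% of all genes. S100a8 and S100a9, which encode a calcium-binding pair that acts on Tlr4, rose in both species. S100a9 rose by 6.41 ± 0.30 in spiny mouse (adjusted p = 3.54e-06) and 6.34 ± 0.60 in mouse (adjusted p = 4.08e-05), and S100a8 by 4.56 ± 0.16 (adjusted p = 2.01e-06) and 6.28 ± 0.73 (adjusted p = 0.000124). Keratinocytes as well as myeloid cells can make both. The keratinocyte and the neutrophil marker sums given above were higher in treated skin of both species. Which cells carried S100a8 and S100a9 here was not tested. The species difference of S100a9 was 0.067 (adjusted p = 0.937), and its sign changed with the scaling. That of S100a8 was -1.72 (adjusted p = 0.0417). It was lost without any 1 of the 8 spiny mouse samples, mouse untreated replicates 1 or 4 or mouse treated replicates 1 or 3, where it lay between -1.80 and -1.60, and with upper-quartile factors (-1.58) or library size alone (-1.51). Pglyrp1, a ligand of Trem1 chosen here after its values were seen, rose by 4.24 ± 0.17 in spiny mouse (adjusted p = 3.54e-06) and was at -0.07 ± 0.33 in mouse (adjusted p = 0.857), a difference of 4.32 (adjusted p = 3.25e-07).

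Targets of NF-kappaB were called higher for 13 of 17 tested genes and lower for 1 in spiny mouse (median 1.21), and for 2 of 15 higher and 2 lower in mouse (median 0.14). The shares of all genes were 28.2% higher in spiny mouse, and 26.0% higher and 35.2% lower in mouse. The neutrophil chemokine Cxcl2 rose by 4.78 ± 0.36 in spiny mouse (adjusted p = 1.99e-05) and was at -0.44 ± 0.67 in mouse (adjusted p = 0.582), a difference of 5.21 (adjusted p = 8.19e-05). The cytokine Il6 rose by 4.39 ± 0.26 in spiny mouse (adjusted p = 8.53e-06) and was below the count filter in mouse. Cxcl1, another neutrophil chemokine, rose in both species, by 2.01 ± 0.42 in mouse (adjusted p = 0.00309) and 1.21 ± 0.26 in spiny mouse (adjusted p = 0.0035). The feedback inhibitor Socs3 rose by 2.73 ± 0.20 in spiny mouse (adjusted p = 1.60e-05) and 0.67 ± 0.20 in mouse (adjusted p = 0.0165), a difference of 2.06 (adjusted p = 5.08e-05). The mouse Socs3 call was lost with upper-quartile factors (0.47) or library size alone (0.43). Relb, a subunit of NF-kappaB, fell by 0.53 ± 0.13 in mouse (adjusted p = 0.007) and was at 0.10 ± 0.17 in spiny mouse (adjusted p = 0.631). Nfkbia, the inhibitor of NF-kappaB, was called lower in both species, at -0.54 ± 0.16 in mouse (adjusted p = 0.0172) and -0.34 ± 0.12 in spiny mouse (adjusted p = 0.0354). Its mouse call was lost without treated replicate 2 (-0.42) or 4 (-0.46), and with no filter (-0.40) or TMM factors over all genes (-0.40). Its spiny mouse call was lost without any 1 of untreated replicates 2 to 4 or treated replicates 1 to 3, where it lay between -0.35 and -0.24.

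Of 6 myeloid transcription factors 5 were called higher in spiny mouse (median 0.79), and 1 higher and 1 lower in mouse (median -0.34). All genes gave 28.2% higher in spiny mouse, and 26.0% higher and 35.2% lower in mouse. Spi1, which encodes PU.1, rose by 0.98 ± 0.15 in spiny mouse (adjusted p = 0.000617), and Cebpe, a factor of late granulocyte maturation, by 1.75 ± 0.38 (adjusted p = 0.00382). Spi1 was at -0.48 ± 0.30 in mouse (adjusted p = 0.186) and was called lower without untreated replicate 2 (-0.60). Cebpb rose in both species, by 1.13 ± 0.28 in mouse (adjusted p = 0.00682) and 0.73 ± 0.11 in spiny mouse (adjusted p = 0.000574). Irf8, a factor of monocytes and dendritic cells, fell by 0.60 ± 0.17 in mouse (adjusted p = 0.0127; -0.47 and not called without treated replicate 2) and rose by 0.85 ± 0.20 in spiny mouse (adjusted p = 0.0051). The pan-leukocyte sums given above moved with all of these lists in spiny mouse, and their part was not tested.

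**Figure D4:**
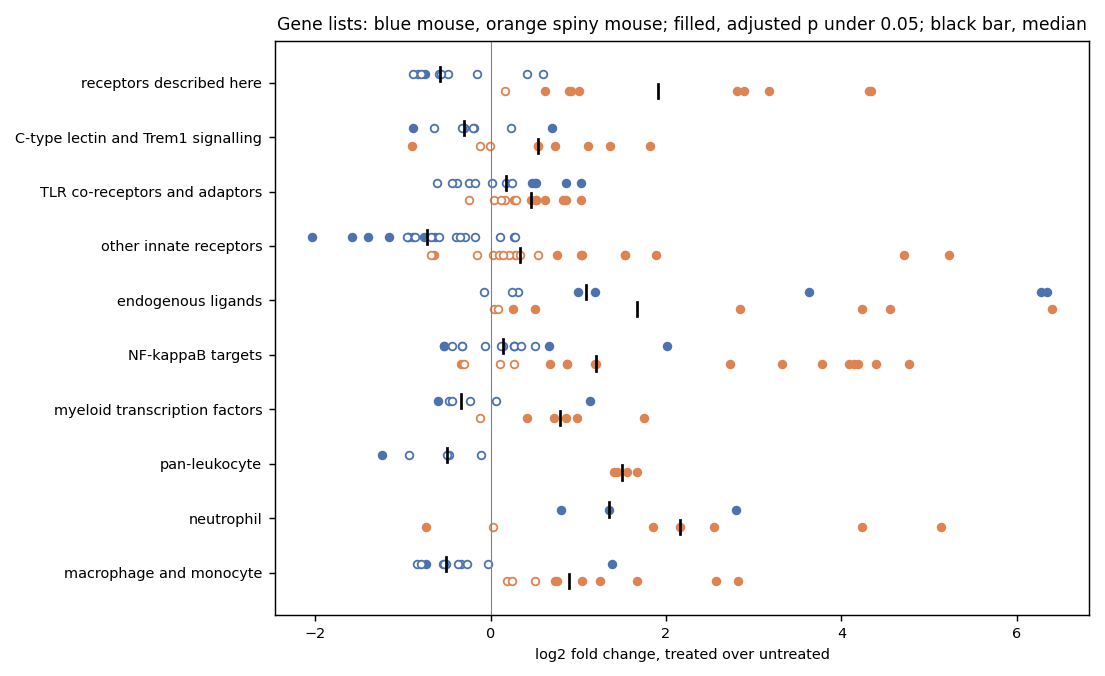
Log2 fold change of treated over untreated skin for every tested gene of the receptor, pathway and marker lists, in mouse (blue) and spiny mouse (orange), with filled points called at an adjusted p under 0.05 and a black bar at the list's median. The receptors' medians lie at -0.58 in mouse and 1.91 in spiny mouse.

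Across the 16 samples, centred within each species, the genes whose log2 CPM followed the mean of the 10 receptors most closely were Sash3 (Pearson r = 0.972), Lcp1 (0.970), Laptm5 (0.964), Fcgr4 (0.964) and Hcls1 (0.960), out of 12187 genes. Sash3, Lcp1, Laptm5 and Hcls1 are genes of blood cells generally, and Fcgr4 encodes an Fc receptor of myeloid cells. Laptm5 is also among the pan-leukocyte markers. Among the receptors themselves, r with the mean of the other 9 ran from 0.464 for Cd14 and 0.761 for Clec4a2 to 0.912 for Clec4d and 0.941 for Clec7a. These values share the same libraries and the treatment contrast, and are descriptions.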

How the data were processed

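Fragment counts per gene were deposited by the authors as 1 table per species. Per the submitters' processing notes, Trim Galore, HISAT2 and featureCounts were used. Per the file headers, featureCounts 2.0.3 counted read pairs, on GRCm39 with the Ensembl 108 annotation for mouse and on AcoCah2 for spiny mouse, with no strand option, so genes overlapping on opposite strands cannot be told apart. Reads in several genes or places were not counted. Mouse symbols came from GENCODE M39 by identifier (56236 named, 744 not). The series' design text describes irradiated fibroblasts, and the sample labels were followed instead. Untreated columns carry a code that the labels do not explain and were assigned by species and replicate number. The column of mouse untreated replicate 2 alone carries a further suffix, which is not explained either.

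Levels are CPM with TMM factors, or FPKM by the deposited gene length. Counts were filtered with filterByExpr and tested with the quasi-likelihood test of edgeR 4.0.16 in R 4.3.3, within each species and, over 13656 shared symbols, as the species by treatment interaction. P-values were adjusted by Benjamini-Hochberg over all genes tested, with a threshold of 0.05. The SE is the log2 fold change divided by the square root of F. The fits were tested on simulated counts with the same relative spread for every gene and changes only in genes of higher counts. That setting does not cover receptors of few counts or an outlying sample. Replicate pairs differed beyond sampling noise in all 24 within-group comparisons (chi-square per degree of freedom 11.35 or more). Alternatives were DESeq2 1.42.0, its size factors, upper-quartile factors, library size alone, no filter, a replicate block, TMM over all genes (added after seeing the data) and leaving out each sample. All 10 receptors were named. From each pathway list the rule took Ly96, Myd88, Syk, Card9, Fcer1g and Tyrobp and, per species, up to 2 called genes with the largest rise and 2 with the largest fall. Likeness was Pearson r of log2 CPM, with a prior count of 2, over genes whose mean log2 CPM was 1 or more in each species, and the 5 highest were named. The receptors and lists were chosen with earlier results of these data known.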

Additional observations from a re-analysis of the deposited data

Results flagged for a closer look

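The interaction test called 8 receptors, with a spiny mouse minus mouse log2 difference of 4.003 for Clec7a, 1.89 for Clec4a2, 5.13 for Clec4d, 3.40 for Clec4e, 2.47 for Clec4n, 1.11 for Tlr2, 1.65 for Tlr4 and 3.71 for Trem1. Treatment contrasts of these samples chose the receptors, so these calls describe the list only. In 4 of 40 groups of 4 samples 1 sample stood far from the other 3, where chance gives about 1 group in 20. Treated mouse replicate 4 was highest for Clec4n (9.31 CPM) and for Trem1 (2.19 CPM). Treated spiny mouse replicate 3 was highest for Clec4d (12.2 CPM), and treated spiny mouse replicate 4 for Tlr4 (62.2 CPM).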

How the results depend on the processing

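In spiny mouse 146 of 150 alternative values of the receptors kept their direction and side of the threshold, and the other 4 were the lost Clec4a2 calls given above. For the species difference 233 of 240 did, and the other 7 added calls for Cd14 or Tlr13. Mouse receptors called lower numbered 1, but 5 under upper-quartile factors, 5 when scaled by library size alone and 0 to 7 on leaving out 1 sample. Leaving out samples reversed some values, within -0.016 to 0.91 for Trem1 and -0.32 to 0.20 for Tlr13 in mouse, -0.37 to 0.040 for Lbp in mouse, -0.021 to 0.26 for Relb in spiny mouse, and, for the species difference, -0.26 to 0.17 for Card9 and -0.16 to 0.32 for S100a9. The Card9 difference was -0.011, and became 0.16 under upper-quartile factors and 0.21 under library size. That of Plcg2 was -0.16, and 0.0090 and 0.064 under these. That of S100a9 was -0.045 with the DESeq2 test, -0.047 with its size factors, -0.057 without a filter and -0.057 with TMM over all genes. The cause was not tested. Of all mouse calls 42.5% were higher, but 30.6% under upper-quartile factors and 28.8% under library size, which moved the median of all genes by -0.20 and -0.24. Of all difference calls 46.2% were positive, but 61.0%, 66.0% and, with TMM over all genes, 34.9%. No scaling reversed the direction of any receptor.

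Same-numbered samples did not deviate together (correlations of -0.008 to 0.023 in mouse and -0.526 to -0.195 in spiny mouse), so the numbers were not taken as pairs. With the replicate number as a block 1 mouse receptor was called lower, 9 spiny mouse receptors higher and 8 differences positive, 11242 mouse and 7418 spiny mouse genes were called, and the differences of Card9 (0.036) and S100a9 (-0.034) reversed. Genes under about 20 counts per sample, as Clec4d, Clec4e and Trem1 in untreated spiny mouse skin, are limited by depth.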

Other observations

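Markers of other leukocytes of the skin were also measured. The 6 T cell genes summed to between 17.8 and 25.8 CPM in untreated and between 8.74 and 12.0 CPM in treated mouse skin, with 4 called lower. In spiny mouse skin they summed to between 30.0 and 48.6 CPM untreated and between 58.2 and 113 CPM treated, with 4 called higher, and all 6 were called with a positive species difference. The dendritic cell list had 4 of 6 genes lower and 1 higher in mouse, and 2 of 5 higher and 1 lower in spiny mouse. Over all genes, 35.2% were called lower and 26.0% higher in mouse, and 28.2% higher in spiny mouse, where 51.2% of all calls were higher. A positive species difference was called for 21.3% of all shared genes. Mast cell markers summed to overlapping ranges in both species, of 80.5 to 146 CPM untreated and 94.6 to 110 CPM treated in mouse, and of 112 to 139 CPM untreated and 95.2 to 145 CPM treated in spiny mouse. Their genes went in different directions. In mouse Kit was called higher (1.18), and the other 4, all with negative fitted changes, were not called. Of 3 tested in spiny mouse, Cma1 was called higher (0.64) and Kit lower (-0.26). The 2 Langerhans cell markers went in different directions in mouse, where Cd207 was called lower (-1.95) and Epcam higher (0.98), and both were called lower in spiny mouse (-0.58 and -0.70). Their sum was between 77.5 and 143 CPM untreated and between 196 and 221 CPM treated in mouse, and between 140 and 163 CPM and between 85.1 and 107 CPM in spiny mouse. The mouse sum was mostly Epcam, at a mean of 106 CPM untreated and 208 CPM treated, beside 15.3 and 3.95 CPM for Cd207.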
